A study of Rattus norvegicus with 2 samples.

Results

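The endothelin and nitric oxide systems both act on vascular tone and salt excretion in the kidney. Endothelin-1 is cut from a larger precursor by a converting enzyme and acts on the A receptor, which constricts vessels and drives mesangial growth, and on the B receptor, which in the collecting duct restrains sodium uptake and in endothelium releases nitric oxide. Nitric oxide is made from arginine by nitric oxide synthases, and the methylated arginine that blocks these enzymes is destroyed by the dimethylargininases.

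The 9 genes described here were chosen by name: the ligand gene Edn1, the receptor genes Ednra and Ednrb, the converting enzyme gene Ece1, the synthase genes Nos1, Nos2 and Nos3, and the dimethylargininase genes Ddah1 and Ddah2. Each matched 1 row among the 29516 rows of the gene table. The RNA came from kidneys of 20-month-old F344 rats, an inbred strain prone to chronic kidney disease in old age. All rats came from an ageing colony and started a diet at 16 months of age, either a casein control diet or a diet with 14% soy, which they ate for 4 months. The labels give 1 library per diet. The sources used here do not say which part of the kidney was taken or whether rats were pooled. No difference below therefore has a replicate check, and no test across samples could be run.

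Levels are FPKM values (fragments scaled to the length of the transcript and to the mapped fragments of the library), so levels can be set side by side between genes. They summed to 643145 in the casein library and 656248 in the soy library, and the number of fragments behind them is unknown. Markers of kidney epithelium were abundant in both libraries, and Umod, which encodes the urinary protein uromodulin, had 2842 and 3662 FPKM. Differences are given as folds of the FPKM values and as log2((soy + 0.1)/(casein + 0.1)), which understates the difference of low genes. Counts cover the 14077 genes whose mean of both libraries reached 1 FPKM. Their median log2 value was 0.01, and their quartiles were -0.14 and 0.14.

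Of the 9 genes, Edn1 alone passed the 1.5-fold limit on the log2 scale, and it was lower with soy. Both receptors, the converting enzyme, the endothelial synthase and both dimethylargininases lay within 1.5-fold, with Ddah1 the most distant on the higher side. A mean of 1 FPKM was reached by 6 of the 9, while Ednra, Nos1 and Nos2 stayed below it. Among those 6, 1 was at least 1.5-fold lower, where the background over all counted genes is 8.08%, and 0 were at least 1.5-fold higher, where it is 3.43%. A single gene of 6 is too few to set these shares apart.

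**Figure D1:**
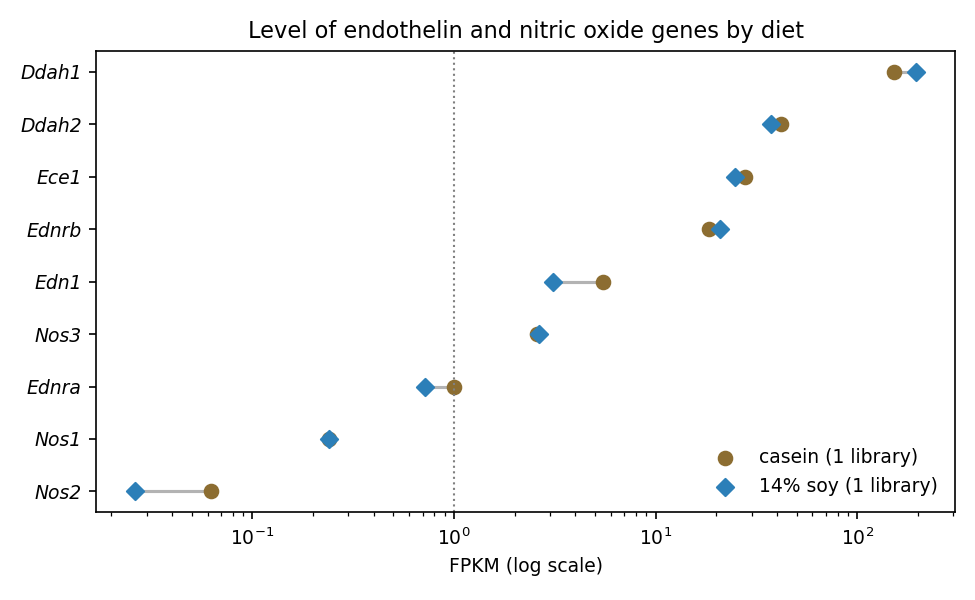
FPKM of the 9 genes on a log axis in the casein library (circles) and the soy library (diamonds), 1 library per diet, with a dotted line at 1 FPKM. The order of the genes is the same in both libraries, and the gap is widest for Edn1 (5.49 and 3.08 FPKM) and for the very low Nos2.

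The order of levels was the same under both diets. Ddah1 came first, followed by Ddah2, Ece1, Ednrb, Edn1, Nos3, Ednra, Nos1 and Nos2, as the plot of levels by diet shows. With no spread between replicates, neighbours in this order cannot be told apart statistically. The level of Edn1 was 2.11 times that of Nos3, its next neighbour, with casein and 1.16 times with soy.

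Edn1, which encodes the precursor of endothelin-1 (ENSRNOG00000014361, chromosome 17, 28303885 to 28309775), stood at 5.49 FPKM on casein and at 3.08 FPKM on soy. The soy library was the lower one by 1.78-fold, a log2 value of -0.81. Gene positions are those of the deposited table, and the sources used here name no genome build for it. Among 4370 genes whose mean lies within 2-fold of that of Edn1, 11.3% were at least 1.5-fold lower with soy. In the authors' deposited table Edn1 had the lowest p-value of the 9 genes, p = 0.0536, with q = 0.770, and it was not called. A p-value no larger than that was listed for 6.96% of the 17450 rows that the authors tested. In RNA from kidney tissue, fewer cells that make a transcript and less of it per cell cannot be told apart.

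The Edn1 promoter is shown because Edn1 is the gene past the fold limit, and the Ddah1 promoter because Ddah1 has the highest level and the largest difference on the other side. The sequences are from RefSeq on the GRCr8 build, and 7 of the 9 genes matched an entry. Each stretch runs 5′ to 3′ on the strand of the gene and covers 150 bases, from 250 to 101 bases before the annotated start of the transcript. Capitals mark matches on either strand to 4 elements described in the human endothelin-1 promoter: a GATA site (AGATAA), the core of the hypoxia response element (ACGTG), an AP-1 site (TGACTNA) and a TATA box (TATAAA).
Edn1, chr17:22666788-22666937, minus strand: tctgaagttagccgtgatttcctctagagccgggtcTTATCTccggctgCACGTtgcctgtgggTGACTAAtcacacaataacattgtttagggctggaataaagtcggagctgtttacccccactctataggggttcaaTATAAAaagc
Ddah1, chr2:237327562-237327711, plus strand: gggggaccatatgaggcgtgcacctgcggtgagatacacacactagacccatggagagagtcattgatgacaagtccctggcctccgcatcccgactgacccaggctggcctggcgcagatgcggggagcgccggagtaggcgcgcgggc

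In the Edn1 sequence the GATA match begins 214 bases before the start, the hypoxia core 201, the AP-1 match 186 and the TATA match 110, and none overlaps another. Among 33469 rat promoters, the 250 bases before the start held the GATA letters in 10.3%, the hypoxia core in 16.6%, the AP-1 letters in 11.5% and the TATA letters in 12.9%. All 4 together were found in 13 promoters (0.0388%), Edn1 among them. The elements were picked from what is known of this gene, so their presence is a description. Of the other members with an entry, Nos1 held the hypoxia core and the AP-1 letters, while Ddah1, Ednra, Ednrb, Ece1 and Nos3 held none of the 4 in that window. For Ednra, Nos1 and Nos3 the start used is not the outermost end of the annotated gene, and no window before that end was searched. The series measured no binding at these sequences.

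The receptors differed more from each other than either did between diets. Ednrb, the B receptor gene (ENSRNOG00000010997, chromosome 15, 87893158 to 87898699), stood at 18.4 FPKM on casein and 20.8 on soy, 1.13-fold higher on soy (log2 value 0.17). Ednra, the A receptor gene (ENSRNOG00000012721, chromosome 19, 32042365 to 32108153), stood at 1.01 FPKM on casein and 0.721 on soy, 1.39-fold lower on soy (log2 value -0.43). The level of Ednrb was therefore 18.3 times that of Ednra with casein and 28.8 times with soy. In the authors' deposited table the p-values were 0.592 for Ednrb and 0.384 for Ednra.

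Ece1, the gene of the membrane protease that releases active endothelin-1 (ENSRNOG00000014241, chromosome 5, 156635620 to 156737433), stood at 27.8 FPKM on casein and 24.8 on soy. It was 1.12-fold lower with soy, with a log2 value of -0.17 and p = 0.513 in the authors' deposited table. Its transcript was more abundant than that of the precursor it cuts: the level of Ece1 was 5.07 times that of Edn1 with casein and 8.03 times with soy.

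The synthase genes were low, and the endothelial form made up most of their sum. Nos3, the endothelial synthase gene (ENSRNOG00000009348, chromosome 4, 6158846 to 6179441), stood at 2.60 FPKM on casein and 2.66 on soy, 1.02-fold higher with soy (log2 value 0.03). Nos1, the neuronal form, which in kidney is known from the macula densa (ENSRNOG00000001130, chromosome 12, 39811144 to 39869484), stood at 0.240 FPKM on casein and 0.241 on soy. Nos3 gave 89.6% of the summed synthase level with casein and 90.9% with soy, and that sum was 2.90 and 2.92 FPKM. The authors' deposited table gave p = 0.928 for Nos3 and p = 0.993 for Nos1.

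Nos2, the inducible synthase of activated macrophages and other inflamed cells (ENSRNOG00000011023, chromosome 10, 65036883 to 65072453), was the lowest of the 9, with 0.0626 FPKM with casein and 0.0263 with soy. Its FPKM ratio was 2.38-fold lower with soy, but both values lie below the pseudocount, and the log2 value was -0.36. The authors' deposited table marks the row as not tested.

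The dimethylargininases were the most abundant of the 9. Ddah1, which is known from the proximal tubule (ENSRNOG00000014613, chromosome 2, 243932329 to 244032876), stood at 151 FPKM on casein and 195 on soy, 1.29-fold higher with soy (log2 value 0.37, p = 0.115 in the authors' deposited table). Ddah2, the form found in vessels and immune cells (ENSRNOG00000000842), stood at 41.8 FPKM on casein and 37.5 on soy, 1.12-fold lower with soy (log2 value -0.16). Ddah1 gave 78.4% of their summed level with casein and 83.9% with soy, and the sum was 193 and 233 FPKM.

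The Ddah2 row carries a limit that the other 8 do not. Its locus in the files runs from 3499166 to 3842473 on chromosome 20, 343308 bases, and is shared by 33 rows of the gene-dense major histocompatibility region. The authors' deposited table gives p = 0.955 for Ddah2, and the lowest p-value of the 28 tested rows at that locus is 0.491. Ltb, which encodes lymphotoxin beta and shares the locus, stood at 10.2 FPKM on casein and 5.00 on soy, with p = 0.876 in the authors' deposited table. Each of the other 8 genes was alone at its locus.

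Over the 9 genes the authors' deposited table holds 8 tested rows and calls 0 of them, where 0.848% of all tested rows were called. None of the 9 appears among the 145 transcripts of the authors' second table.

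**Figure D2:**
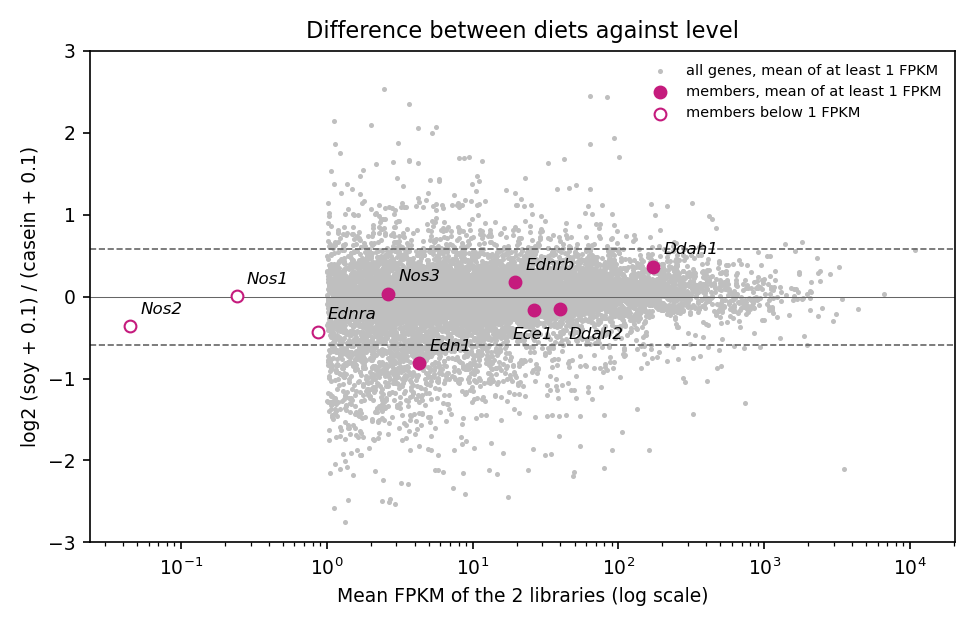
Log2 value (soy over casein, 0.1 added to each) against the mean FPKM of both libraries on a log axis, for 14077 genes (grey) and the 9 members (filled from a mean of 1 FPKM upwards, open below it), with dashed lines at 1.5-fold; grey points beyond 3 are outside the axis. Edn1 at -0.81 is the member beyond the dashed lines, and Ddah1 at 0.37 lies highest.

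The rest of the pathway was described with 4 lists holding 55 further genes, of which 50 were matched and 43 reached a mean of 1 FPKM. Of these 43, 22 were higher and 21 lower with soy. At least 1.5-fold higher were 4, where the background over all counted genes is 3.43%. At least 1.5-fold lower were 3, where it is 8.08%. None of these 4 list medians lay further from 0 than 0.12.

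Endothelin processing and signalling genes had a median log2 value of 0.12 over 9 measured genes, 6 of them higher and 3 lower. Mme, which encodes neprilysin, a protease that degrades endothelin and other peptides, stood at 57.1 FPKM on casein and 93.5 on soy, 1.64-fold higher. Edn3, the gene of endothelin-3, which prefers the B receptor, had 2.29 and 3.69 FPKM, 1.61-fold higher with soy and so on the opposite side from Edn1. Both lay past the fold limit, and neither was called in the authors' deposited table (q = 0.215 for Mme). The calcium release channel gene Itpr1 (15.9 and 20.4 FPKM) and the phospholipase gene Plcb4 (2.71 and 3.25 FPKM) stayed within it. Edn2, the gene of the remaining ligand, was almost absent, at 0.0128 FPKM with casein and 0.0140 with soy.

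Genes of synthase cofactors and partners had a median of 0.01 over 15 measured genes, 8 higher and 7 lower, none by 1.5-fold. Gchfr, which encodes the feedback inhibitor of tetrahydrobiopterin synthesis, had 24.6 and 34.3 FPKM, 1.39-fold higher with soy. Dynll1, a light chain first described as an inhibitor of the neuronal synthase, had 178 and 131 FPKM, 1.35-fold lower. Akt1, the kinase that activates the endothelial synthase, had 59.7 and 50.0 FPKM, a smaller difference.

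Genes of arginine and methylarginine supply had a median of -0.03 over 10 measured genes, 3 higher and 7 lower. Slc7a7, a basic amino acid exporter of the proximal tubule, had 71.9 and 30.5 FPKM, 2.35-fold lower with soy, and the authors' deposited table calls it with q = 8.58e-05. It is the 1 called gene of the 4 lists. Arginase genes, whose enzymes compete with the synthases for arginine, were both on the higher side, with 1.14 and 1.92 FPKM for Arg1, 1.69-fold higher, and 54.9 and 64.0 FPKM for Arg2. Gatm, which uses arginine to make a creatine precursor, had 741 and 604 FPKM, 1.23-fold lower with soy.

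Genes of cyclic GMP signalling, the pathway through which nitric oxide acts, had a median of 0.02 over 9 measured genes, 5 higher and 4 lower. Of the listed subunit genes of the nitric oxide receptor, soluble guanylate cyclase, Gucy1b2 alone was higher with soy. Gucy1a3 had 5.52 and 3.34 FPKM, 1.65-fold lower with soy, and Gucy1b3 had 4.17 and 2.73 FPKM, 1.53-fold lower. Gucy1b2, a further subunit gene, had 6.12 and 8.27 FPKM, 1.35-fold higher with soy. Pde1a, a phosphodiesterase that breaks down cyclic nucleotides, had 14.0 and 23.7 FPKM, 1.69-fold higher with soy. Vasp, a cytoskeletal substrate of the cyclic GMP kinase, had 38.2 and 27.4 FPKM, 1.40-fold lower. The authors' deposited table calls none of these, with q = 0.354 for Gucy1a3 and q = 0.952 for Gucy1b3. The rows of Gucy1a3, Mme, Itpr1 and Plcb4, like that of Ddah2, share their loci with other rows. So do those of Scnn1b, Avpr2, Aqp4 and Slc5a2 among the markers below. Aif1, counted among the macrophage markers, lies at the locus of Ddah2.

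**Figure D3:**
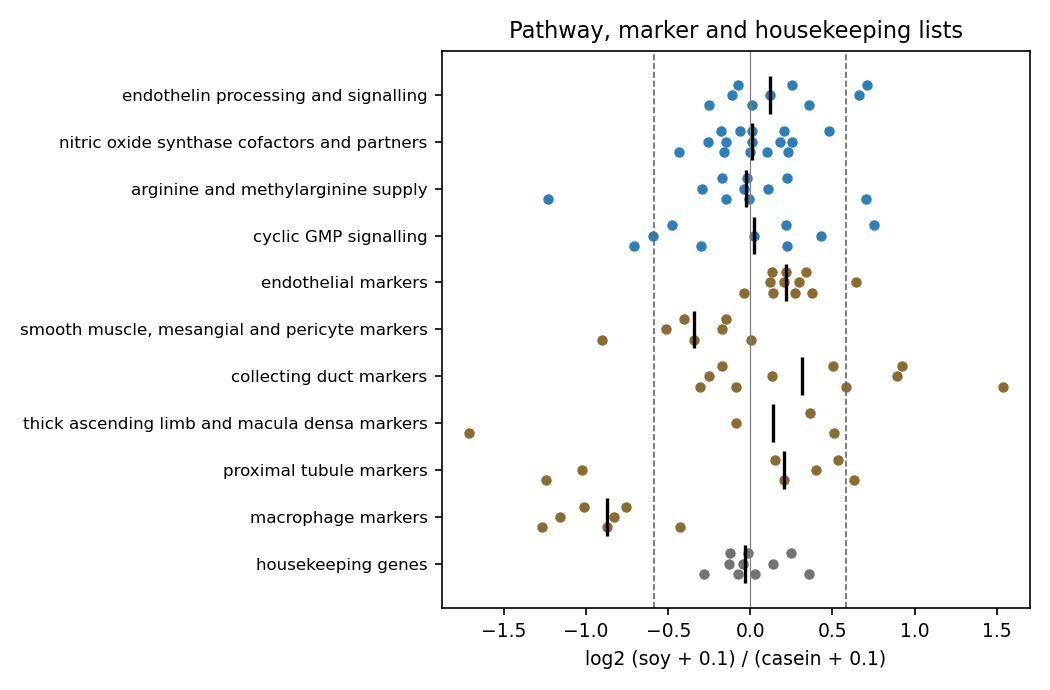
Log2 values (soy over casein, 0.1 added to each) of the listed genes that reached a mean of 1 FPKM, 1 point per gene, with the list median as a black bar and dashed lines at 1.5-fold. The pathway lists (blue) centre near 0, the macrophage markers lie entirely on the lower side (median -0.87), and the collecting duct markers have the highest median (0.32).

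Markers of the cells in which these genes are known to be active differed between the libraries as well. Of 14 endothelial markers 11 were measured, and 10 of these were higher with soy (median 0.22), their summed level was 245 FPKM with casein and 295 with soy, and Vwf had 7.33 and 11.5 FPKM. Collecting duct markers, from a main site of endothelin-1 and B receptor expression, were higher in 6 of 10 cases (median 0.32), with a sum of 645 and 778 FPKM, led by Elf5 (0.855 and 2.68 FPKM) and Fxyd4 (21.5 and 40.8 FPKM). Most of the difference in that sum was in Aqp2, the vasopressin-regulated water channel gene (259 and 367 FPKM), while Scnn1b, Scnn1g, Hsd11b2 and Avpr2 were 1.06-fold to 1.26-fold lower with soy. Edn1 was lower in the library with the higher marker sums, and the part of these cells in its value was not tested. Nos3 (1.02-fold) and Ednrb (1.13-fold) were each slightly higher in that library.

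Smooth muscle, mesangial and pericyte markers, from cells that carry the A receptor and the nitric oxide receptor, were lower with soy in 6 of 7 measured cases (median -0.34). Of the 10 fixed, Acta2, Myh11 and Cnn1 were not matched by name. Their sum was 123 FPKM with casein and 91.4 with soy, and Des, the desmin gene, had 14.1 and 7.47 FPKM. Ednra, Gucy1a3 and Gucy1b3 were lower in the same library, and the part of these cells in their values was not tested. Of 9 macrophage markers, 7 were measured, and all 7 were lower with soy (median -0.87). The 1.5-fold limit was passed by 6 of these, where the background over all counted genes is 8.08%. Their sum was 783 and 422 FPKM, with 85.2 and 38.0 FPKM for the adaptor gene Tyrobp. Most of that sum in both libraries was Lyz2 (611 and 334 FPKM). Edn1, which macrophages can express, was lower in the same library, and the part of macrophages in its value was not tested. For Nos2, which they can also express, both values lie below the pseudocount, so no direction is read from it.

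Proximal tubule markers had a median of 0.20 over 7 genes, 5 higher and 2 lower, with a sum of 1851 and 2204 FPKM, beside the higher Ddah1. Most of the difference in that sum was in Aqp1 (598 and 790 FPKM) and Slc34a1 (907 and 1044 FPKM). The lower markers were Slc5a12 (16.4 and 6.85 FPKM) and Slc5a2 (21.8 and 10.7 FPKM), transporters of lactate and glucose. The 4 matched thick ascending limb and macula densa markers had a median of 0.14, with 2 higher and 2 lower with soy. Umod was 1.29-fold higher. On the lower side, Ptgs2, the cyclooxygenase gene that the macula densa expresses beside Nos1, had 2.57 and 0.712 FPKM, while Nos1 had nearly equal values. No matched marker of any of the 6 cell type lists was listed at 0. Of the markers, the authors' deposited table calls Fxyd4, Aqp4, Ptgs2, Slc5a12 and Tyrobp, where 0.848% of all tested rows were called. Elf5 was not called (q = 0.218). The 10 measured housekeeping genes had a median of -0.03.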

How the data were processed

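Kidney RNA was made into TruSeq libraries after column extraction with DNase treatment, per the labels' protocols. Bowtie, TopHat and Cufflinks are listed, with no version, per the submitters' processing notes. The authors deposited an FPKM value per gene and diet, with their own log2 fold, test statistic, p-value and q-value, per the file headers. For the genome build and for the number of libraries in that test, the sources used here state nothing. The authors' deposited infinite folds were not used.

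From these values the log2 ratio was computed with a pseudocount of 0.1 FPKM, and genes reaching a mean of 1 FPKM were counted past 1.5-fold on that scale; the counting was tested on simulated data. The members and 11 lists (123 genes, 107 matched by symbol or RefSeq synonym) were chosen with earlier results of these data known. All members were named, with up to 4 genes per pathway list and 2 per marker list by size of difference; a gene named by this rule is not reported here. Umod, Edn2, Ltb, Lyz2, Aqp1, Slc34a1, Gucy1a2 and Gucy1b2 were chosen after values were seen. So were the collecting duct genes other than Elf5 and Fxyd4, the genes near the level of Edn1, and the motifs. Alternatives were other pseudocounts, limits on the mean, centring, tested rows only and a 2-fold limit. Figures were drawn with matplotlib 3.10.9, and values were computed with pandas 2.3.3 and numpy 2.4.6 in Python 3.11.15.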

Additional observations from a re-analysis of the deposited data

How the results depend on the processing

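No paired analysis was possible because each diet has 1 library, and for the same reason no library could be left out. Edn1 was lower under every alternative run, with log2 values from -0.83 to -0.67. It is the 1 member at least 1.5-fold lower, and that count was 0 with a mean of at least 5 FPKM, since the mean of Edn1 is 4.29, and 0 with a 2-fold limit. Genes at least 1.5-fold higher numbered 483, and 1067 with no filter on low values, 255 with a mean of at least 5 FPKM and 218 with a 2-fold limit. Genes at least 1.5-fold lower numbered 1137, and 2361, 463 and 505 under the same alternatives. Of 55 alternative log2 values of members, 54 stayed on their side of 1.5-fold and moved by less than that. The other was Nos2 with a pseudocount of 0.01, at -0.9985. Alternatives that only change which genes are kept leave a member's log2 value as it is. Among these 55 values, only other pseudocounts and centring could therefore move one. All 77 alternative list medians stayed on their side of 1.5-fold, but the sign of the medians near 0 was not stable: the cofactor list went to -0.0015 when centred on all genes, the arginine list to 0.0018 when centred on housekeeping genes, and the cyclic GMP list to -0.17 with no filter on low values. Nos1 ran from -0.01 to 0.04, so its direction depends on centring. Depth is unknown, so no counting interval can be given for any member.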

Other observations

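The locus of Ddah2 is one of many that several rows share. In the authors' deposited table, 3586 tested rows share a locus with another row, and 15 of them (0.418%) were called. Of 13864 tested rows alone at a locus, 133 (0.959%) were called. This comparison was made after the values at the Ddah2 locus had been seen, and its cause was not tested.

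The ratios of very low values fell on steps. Among 2211 genes above 0 in both libraries with a mean below 0.1 FPKM, the most frequent ratio of soy to casein was 1.09, within 0.015 on the log2 scale in 214 genes. A ratio 2 times as high was found in 82 genes and 0.5 times that ratio in 90, against 10 and 9 at places between these steps. Edn2, at 0.0128 and 0.0140 FPKM, lies on that step.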
